A study of Mus musculus with 6 samples.

Results

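*Slc1a2* and *Fabp7* are a pair of astroglial genes whose signals were read on arrays of adult mouse neocortex. They were chosen by gene symbol, from the study's own table of mRNAs that changed on these arrays. Each had 1 named probe, so that the 2 probes described here are 2 of the 60915 probes on each array and of the 1803 probes that could be named. That table was made from the same contrast between genotypes, and both genes stand in its higher block. Their levels in the genotypes are therefore given as a description, with no test.

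The samples were cortices of adult male mice, with 3 mice labelled KHSRP-KO and 3 WT littermates, and each sample was hybridized to 1 array of 1 colour. KHSRP is an RNA-binding protein that promotes decay of mRNAs with AU-rich elements, and the comparison asks how mRNA levels in neocortex differ where *Khsrp* has been deleted. The deletion is constitutive, so neurons, glia and vascular cells all lack the protein. *Khsrp* itself has no named probe, and the genotype of each array is that of its label.

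*Slc1a2* encodes the glutamate transporter GLT-1, also known as EAAT2, which sits in the membrane of astrocytes around synapses and takes up most of the glutamate released in the forebrain. Some *Slc1a2* mRNA is also made by neurons. By droplet digital PCR, the paper reports *Slc1a2* mRNA raised in cell bodies of cultured neurons without *Khsrp*. It also discusses *Slc1a2* among mRNAs found higher by this method in brain tissue. Those measurements were not re-analysed here. *Fabp7* encodes the brain fatty acid-binding protein, also known as BLBP, a small cytosolic carrier of long-chain polyunsaturated fatty acids. It is a classic marker of radial glia, the stem cells of the developing cortex, and in the adult it is kept by part of the astrocytes and by precursors of oligodendrocytes. In bulk cortex, more cells of a type and more mRNA in each cell cannot be told apart.

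The study's table gives the probe of *Slc1a2* the accession NM_001077515 and that of *Fabp7* the accession NM_021272. In the RefSeq table for GRCm38.p6, *Slc1a2* lies on chromosome 2 with 4 curated transcripts, and *Fabp7* on chromosome 10 with 1. Which of the *Slc1a2* transcripts the probe can pick up is not given in the sources used here. For *Fabp7*, RefSeq lists 1 start, and the 250 bases before it are shown because nuclear factor I proteins, the family of NFIA, are known regulators of this promoter. The sequence is that of GRCm38.p6 chr10:57784673-57784922 on the plus strand, written 5′ to 3′, with a match to a nuclear factor I-like motif, TTGGC followed after any 5 bases by GCC, in capitals.

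*Fabp7*: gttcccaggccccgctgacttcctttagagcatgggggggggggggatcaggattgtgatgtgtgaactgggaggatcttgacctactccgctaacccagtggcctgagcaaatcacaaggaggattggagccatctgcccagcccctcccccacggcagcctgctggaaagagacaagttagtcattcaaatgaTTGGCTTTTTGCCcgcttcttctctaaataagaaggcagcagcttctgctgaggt

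The match begins 55 bases before the start. Searched on both strands, this motif was found in 400 of the 32851 windows of the same length in the RefSeq table, or 1.22%. The motif GTGGGAA of RBPJ, the DNA-binding partner of Notch, was found in 5.42% of windows and not in this one. The single start listed for *Slc1a2* lies inside the gene and its window held neither motif. A match is only a description of the letters, and the arrays do not measure binding.

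Both spots were bright and measured on every array. The median intensity of the *Slc1a2* spot as scanned was between 634 and 1135 times that of its local background, and for *Fabp7* it was between 211 and 314 times. Neither spot was saturated or marked as an outlier on any array. Each gene had 1 spot on each array, so that there is no technical replicate of these values within an array. For the 15 reference genes with 20 spots each, the median SD between spots of an array was between 0.017 and 0.15 on the log2 scale.

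The background-subtracted signal of *Slc1a2*, before scaling between arrays, was 16554, 16684 and 16754 on KHSRP-KO arrays 1, 2 and 3. It was 13463, 17107 and 13635 on WT arrays 1, 2 and 3. The KHSRP-KO arrays lay close together, and WT array 2 was above all of them, so the genotypes overlapped. The mean signal was 16664 ± 101.4 (SD, n = 3) in KHSRP-KO and 14735 ± 2056 (SD, n = 3) in WT neocortex, a ratio of 1.13.

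For *Fabp7*, the unscaled signal was 5506, 7545 and 5589 on KHSRP-KO arrays 1, 2 and 3. It was 3592, 4071 and 4676 on WT arrays 1, 2 and 3. Every KHSRP-KO array was above every WT array without any scaling. With scaling, the same held for 12.4% of all probes, and the share without scaling was not computed. The mean signal was 6213 ± 1154 (SD, n = 3) in KHSRP-KO and 4113 ± 543 (SD, n = 3) in WT neocortex, a ratio of 1.51.

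The arrays differed in brightness as a whole. The 75th percentile of the log2 signal was 8.85, 8.46 and 8.42 on the KHSRP-KO arrays and 8.92, 8.96 and 8.73 on the WT arrays. It was lower on KHSRP-KO arrays 2 and 3 than on any other array. Subtracting it from each array gives the scaled log2 signal used below, and it raises KHSRP-KO arrays 2 and 3 relative to the rest. Without scaling, the median log2 difference of all probes tested was -0.29, against 0.00 with scaling, so a part of each scaled difference is this shift.

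**Figure D1:**
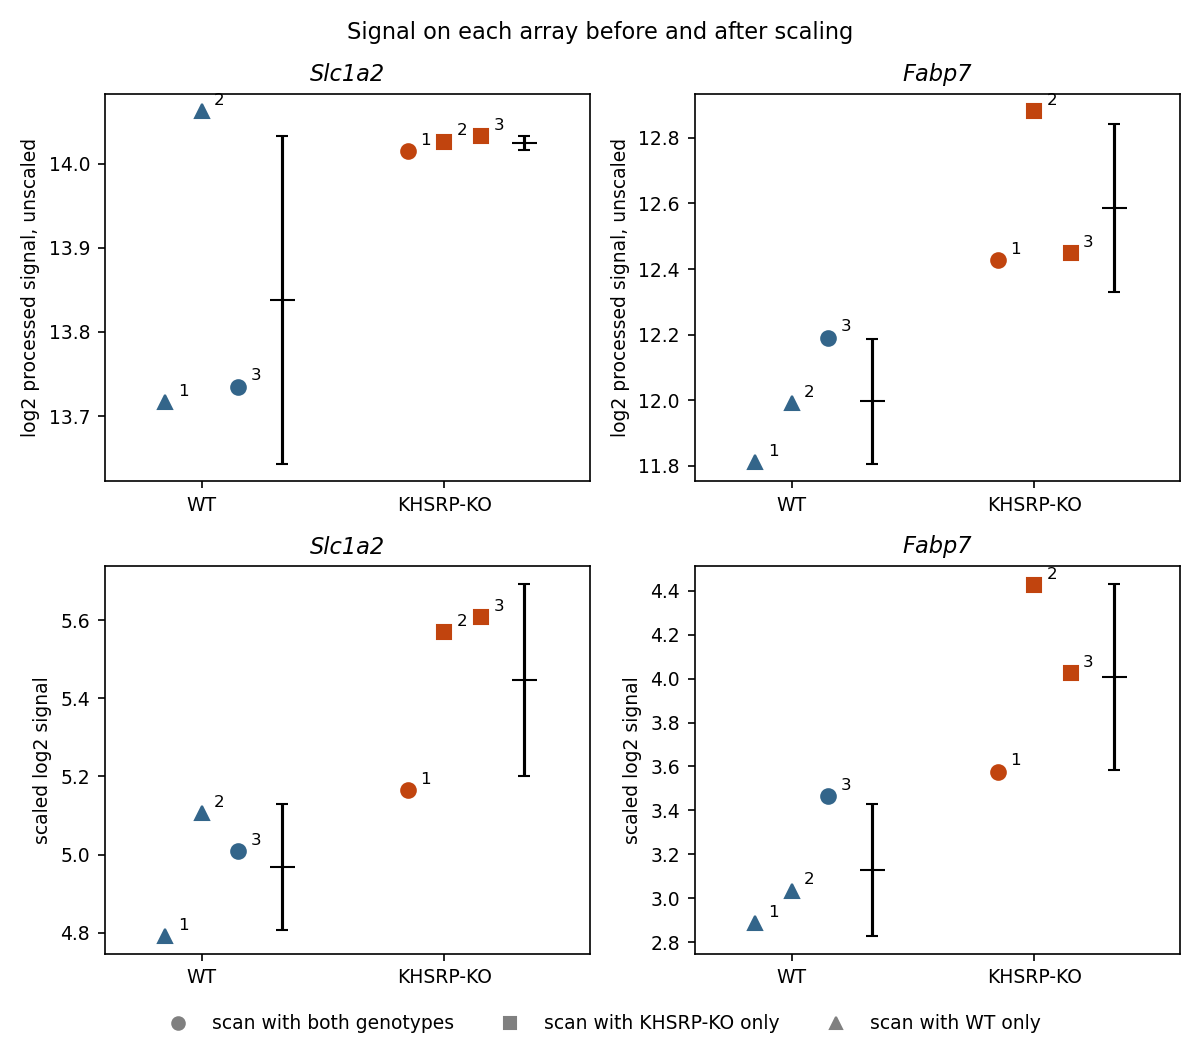
Signal of *Slc1a2* (left) and *Fabp7* (right) on each array, with the log2 processed signal above and the scaled log2 signal below. Points are arrays numbered by replicate, marker shapes give the scan, and bars give the mean ± SD (n = 3). Before scaling, WT array 2 exceeds all KHSRP-KO arrays for *Slc1a2*, whereas for *Fabp7* the genotypes are apart in both rows.

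On the scaled log2 scale, *Slc1a2* was 5.16, 5.57 and 5.61 on KHSRP-KO arrays 1, 2 and 3. It was 4.79, 5.11 and 5.01 on WT arrays 1, 2 and 3. The genotypes no longer overlapped, and KHSRP-KO array 1 and WT array 2 were 0.058 apart. The means were 5.45 ± 0.25 (SD, n = 3) in KHSRP-KO and 4.97 ± 0.16 (SD, n = 3) in WT neocortex. The log2 difference was 0.48 (SE 0.18 from limma), or 1.39-fold.

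*Fabp7* had a scaled log2 signal of 3.58, 4.42 and 4.02 on KHSRP-KO arrays 1, 2 and 3. It was 2.89, 3.03 and 3.47 on WT arrays 1, 2 and 3. The genotypes did not overlap, and KHSRP-KO array 1 was the lowest of its genotype while WT array 3 was the highest of the other. The means were 4.01 ± 0.42 (SD, n = 3) in KHSRP-KO and 3.13 ± 0.30 (SD, n = 3) in WT neocortex. The log2 difference was 0.88 (SE 0.26 from limma), or 1.84-fold.

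Where the genes lie among all 48436 probes tested is given as a description. The unadjusted thresholds used below, a limma p under 0.05 before adjustment together with the minimum fold that the study used, took in 9.26% of all probes as higher, 2 of the 2 genes among them. With the p adjusted by the Benjamini-Hochberg method, as the study's methods ask of its target mRNAs, they took in 0.0826% as higher and 0.0124% as lower, and 0 of the 2 genes. The KHSRP-KO arrays were all above the WT arrays for both genes and for 12.4% of all probes, and all below them for 9.9%. As the genes were chosen on this contrast, these counts are no test of them. A larger rise than that of *Slc1a2* was seen in 10.6% of the probes tested, and a larger rise than that of *Fabp7* in 2.68%.

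The spread between arrays of a genotype was smaller for *Slc1a2* than for *Fabp7*. The pooled SD was 0.21 for *Slc1a2* and 0.37 for *Fabp7*, and the median over all probes tested was 0.25. A larger SD was found in 62.3% of the probes for *Slc1a2* and in 25.4% for *Fabp7*. The larger difference of *Fabp7* thus comes with the larger spread.

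The headers of the scanner output give each array's scan time, and no slide is named in the sources used here. KHSRP-KO array 1 and WT array 3 had the same scan time, KHSRP-KO arrays 2 and 3 another, and WT arrays 1 and 2 the third. The pair of the shared scan differed by 0.15 on the scaled log2 scale for *Slc1a2* and by 0.11 for *Fabp7*. Between the scans that held a single genotype, the means differed by 0.64 for *Slc1a2* and by 1.26 for *Fabp7*. For both genes the difference was thus larger between scans with 1 genotype each, where scan and genotype cannot be told apart. Those scans also carry most of the weight in the difference over all arrays, as they hold 2 of the arrays of each genotype.

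Against the medians of all probes called higher, *Fabp7* differed less in the shared scan and more between the scans with a single genotype. Over all probes past the unadjusted thresholds in the higher direction, the median was 0.45 in the shared scan and 0.76 between the other scans. A smaller difference in the shared scan than that of *Fabp7* was found in 11.7% of these probes, and a smaller one than that of *Slc1a2* in 15.6%. These probes were called on the same 6 arrays, the pair of the shared scan included. The medians and shares are therefore a description and no independent standard. The minimum fold was reached in the shared scan by 18.1% of all probes in the higher direction, and by neither of the 2 genes. That scan has 1 array of each genotype and gives no spread of its own.

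The difference between the genes can be read within each array, where scaling by a constant cancels. The log2 ratio of *Fabp7* to *Slc1a2* was -1.59, -1.15 and -1.58 on KHSRP-KO arrays 1, 2 and 3. It was -1.91, -2.07 and -1.54 on WT arrays 1, 2 and 3. WT array 3 was above KHSRP-KO arrays 1 and 3, so the genotypes overlapped. The means were -1.44 ± 0.25 (SD, n = 3) in KHSRP-KO and -1.84 ± 0.27 (SD, n = 3) in WT neocortex, a difference of 0.40 in the direction of a larger rise of *Fabp7*. In the shared scan this difference was -0.04, in the opposite direction.

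The arrays also carry 15 reference genes, such as *Gapdh*, *Actb* and *Hprt*, with 20 spots each. Their scaled log2 differences ran from -0.43 for *Actb*, the cytoskeletal actin, to 0.67 for *Tfrc*, the transferrin receptor, with a median of 0.20. Relative to these genes within each array, *Slc1a2* rose more than 14 of the 15, with a median difference of 0.28. The exception was *Tfrc*, against which the difference was -0.19. *Fabp7* rose more than all 15 reference genes, by between 0.21 and 1.31, with a median of 0.68. Of all probes tested, 10.6% rose more than *Slc1a2* and 2.68% more than *Fabp7*, and both genes were chosen as higher.

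For the ratio to a reference gene, the KHSRP-KO arrays were all above the WT arrays with 7 of the 15 genes for *Slc1a2*. With every other probe tested taken in place of a reference gene, the same held for 35.1% of probes. For *Fabp7*, it was so with 12 of the 15 reference genes and with 56% of all probes. In the shared scan, the reference genes had a median difference of -0.13, and *Slc1a2* was above 14 of them and *Fabp7* above 12. The matching share over all probes was not computed for that scan. Reference genes differed among themselves by more than *Slc1a2* differed from their median, so the size of its difference depends on the reference chosen.

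**Figure D2:**
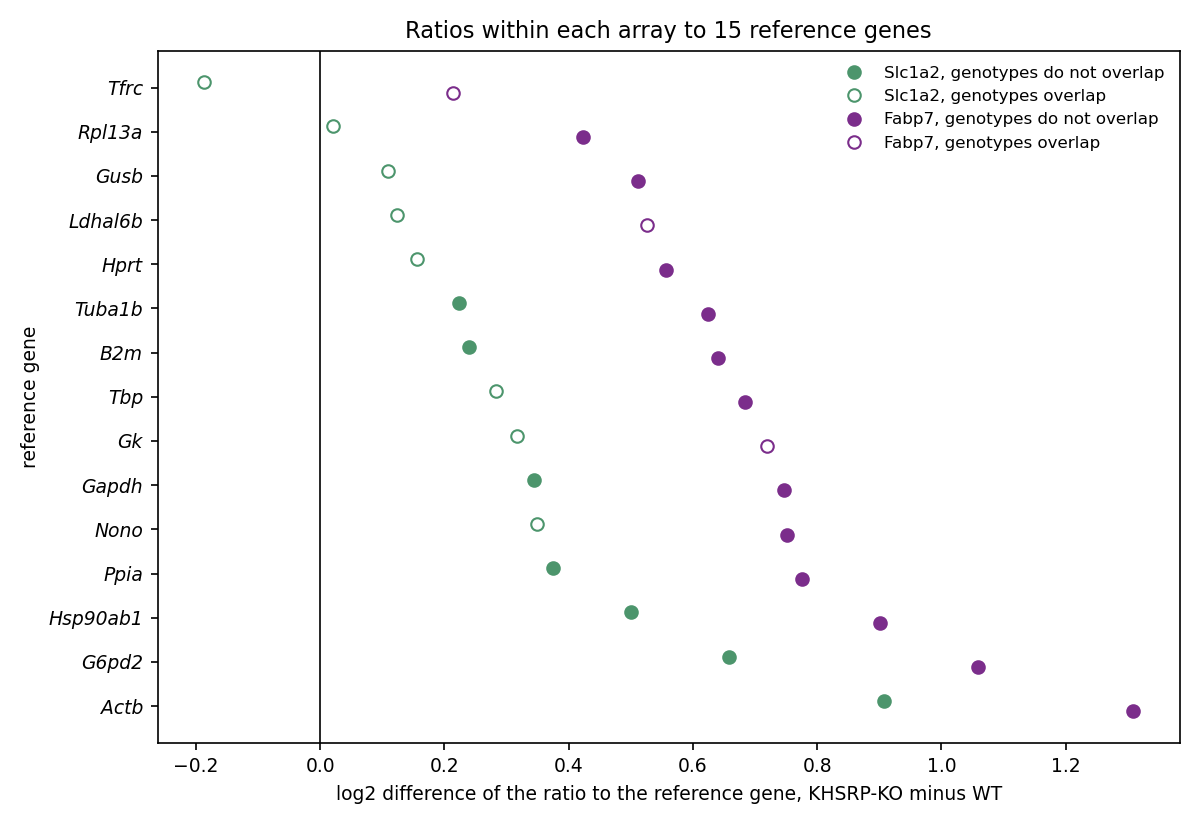
Log2 difference between genotypes (KHSRP-KO minus WT) of the ratio of *Slc1a2* (green) and *Fabp7* (purple) to each of 15 reference genes within an array. Filled points mark ratios whose genotypes do not overlap (7 for *Slc1a2* and 12 for *Fabp7*), and the only point below 0 is *Slc1a2* against *Tfrc*, at -0.19.

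Astroglial genes were read from a list of 43 markers of astrocytes and radial glia. Only 4 of them had a named probe, since names come from a table of changed mRNAs, so *Slc1a3*, *Gfap*, *Aqp4* and *Aldh1l1* were not analysed here and the share of astrocytes in each sample could not be checked. Besides *Slc1a2* and *Fabp7*, the named ones were *Id3* and *Nfia*. Of the 3 that were tested, 2 were higher and 1 was lower at the unadjusted thresholds, beside 9.26% and 7.03% of all probes, and 0 passed after adjustment. As all 4 names come from the selected table, these counts are no independent evidence.

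*Id3*, an inhibitor of basic helix-loop-helix factors that is made by astrocytes and vascular cells, went the other way. Its scaled log2 signal was 3.76, 2.56 and 2.04 on KHSRP-KO arrays 1, 2 and 3 and 4.285, 4.42 and 4.195 on WT arrays 1, 2 and 3. The genotypes did not overlap, KHSRP-KO array 1 was nearest to the WT arrays, and the log2 difference was -1.51 (SE 0.41 from limma), with -0.44 in the shared scan. *Nfia*, a nuclear factor I gene that acts in the onset of gliogenesis, was well above background on 2 KHSRP-KO arrays and on no WT array. It was therefore not tested. Its arrays overlapped between genotypes. Each WT array was set to the dimmest level that counted as above background there, or to its own level if brighter. The mean was then 1.07-fold higher in KHSRP-KO neocortex, whose arrays were kept as measured. Not every KHSRP-KO array was well above background, so this value is no lower bound.

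Genes of glutamate uptake and recycling were next. Of the 26 listed, 3 had a named probe, *Slc1a2*, *Glud1* and *Slc38a8*, all 3 from the higher block of the study's table. That all 3 were higher at the unadjusted thresholds, beside 9.26% of all probes, was therefore set by how they were named. No other member of the *Slc1* family, 7 genes in all, had a named probe. *Glud1* encodes glutamate dehydrogenase, which converts glutamate to α-ketoglutarate. Its scaled log2 signal was 1.30, 1.42 and 1.55 on the KHSRP-KO arrays and 0.90, 1.16 and 0.98 on the WT arrays. The difference was 0.41 (SE 0.16 from limma), and in the shared scan it was 0.32, above the 0.15 of *Slc1a2* there. *Slc38a8*, an amino acid transporter that carries glutamine, was -2.31, -1.38 and -1.87 on the KHSRP-KO arrays and -3.26, -3.47 and -3.38 on the WT arrays. Its difference was 1.52 (SE 0.24 from limma), the largest rise of the listed genes tested, and 1.08 in the shared scan.

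Of the 32 listed genes of fatty acid binding and lipid handling, 4 had a named probe, 2 from the higher and 2 from the lower block. At the unadjusted thresholds 1 was higher and 2 were lower, beside 9.26% and 7.03% of all probes, and the directions were set by the blocks. *Fabp7* was the higher one. *Pmp2*, which encodes the fatty acid-binding protein of myelin and belongs to the same protein family as *Fabp7*, was -2.66, -3.47 and -3.51 on the KHSRP-KO arrays and -2.06, -2.15 and -2.72 on the WT arrays. WT array 3 was below KHSRP-KO array 1, and while the difference was -0.90 (SE 0.29 from limma) over all arrays, it was 0.06 in the shared scan. *Rbp2*, a cellular retinol-binding protein of the same family, had a difference of -1.24 (SE 0.37 from limma), and of -0.11 in the shared scan.

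*Pparg*, a nuclear receptor for fatty acids, had a difference of 0.43 (SE 0.19 from limma), which missed the threshold before adjustment. Its scaled log2 signal was -2.76, -2.30 and -2.48 on the KHSRP-KO arrays and -2.76, -2.90 and -3.15 on the WT arrays. None of the other 8 genes named *Fabp* on the list had a named probe.

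**Figure D3:**
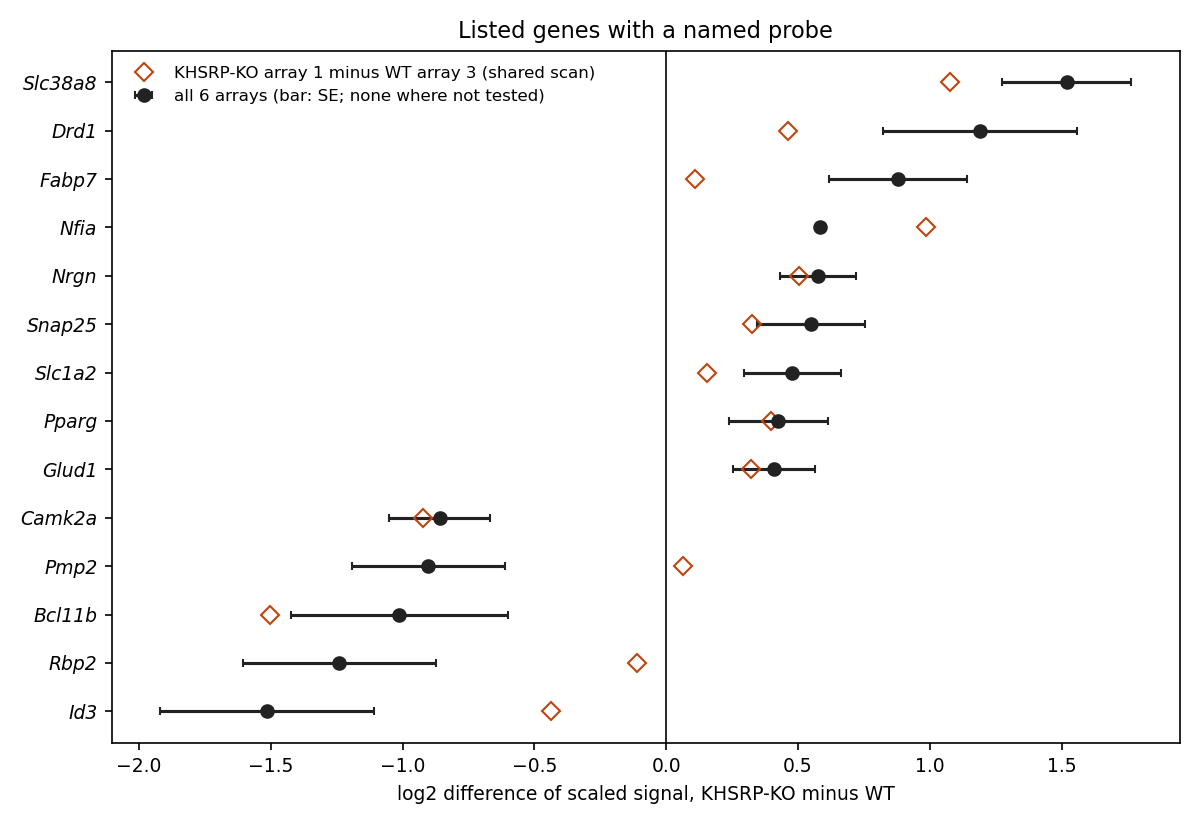
Log2 difference of the scaled signal, KHSRP-KO minus WT, for the 14 listed genes with a named probe. Black points are all 6 arrays with the SE of the fit and open diamonds are the pair of the shared scan. The diamonds of *Slc1a2*, *Fabp7*, *Drd1*, *Slc38a8*, *Snap25*, *Pmp2*, *Rbp2* and *Id3* lie nearer to 0 than their black points and outside the SE, those of *Bcl11b* (-1.50) and *Nfia* (0.99, against 0.58) lie farther from 0, and those of *Glud1*, *Nrgn*, *Pparg* and *Camk2a* lie within the SE.

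Markers of other cells were sparse. None of the 17 genes of oligodendrocytes and their precursors, of the 15 of microglia or of the 14 of endothelium and pericytes had a named probe, so their levels beside those of *Slc1a2* and *Fabp7* were not tested. Of 24 neuronal genes, 4 were named, 2 from each block of the table. In keeping with their blocks 2 were higher and 2 were lower at the unadjusted thresholds, beside 9.26% and 7.03% of all probes. *Snap25*, a protein of synaptic vesicle fusion, and *Nrgn*, a calmodulin-binding protein of dendritic spines, had differences of 0.55 (SE 0.20 from limma) and 0.58 (SE 0.14 from limma). *Camk2a*, the kinase of excitatory synapses, and *Bcl11b*, a transcription factor of deep-layer projection neurons, had differences of -0.86 (SE 0.19 from limma) and -1.01 (SE 0.41 from limma). In the shared scan *Bcl11b* differed by -1.50. All 4 probes were well above background on all arrays.

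*Drd1*, the dopamine receptor that is abundant in striatum, which lies beneath the neocortex, was the only one of 9 striatal genes with a named probe. It came from the higher block of the study's table. That it was higher at the unadjusted thresholds, beside 9.26% of all probes, was therefore set by how it was named. Its scaled log2 signal was 3.28, 4.75 and 3.555 on the KHSRP-KO arrays and 2.68, 2.52 and 2.82 on the WT arrays. The difference of *Drd1* was 1.19 (SE 0.37 from limma). KHSRP-KO array 2 had the highest scaled signal of *Fabp7* and of *Drd1*, and also of *Nrgn* and the reference genes *Rpl13a* and *Gapdh*. The highest signals of *Slc1a2*, *Snap25* and *Glud1* were on KHSRP-KO array 3. The shared peak is therefore not particular to *Drd1*. The part of dissection in the *Fabp7* signal was not tested.

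Among 1686 other named genes, 485 (28.8%) had a Pearson correlation with *Slc1a2* above 0.9 over the 6 arrays, and 465 (27.6%) had one with *Fabp7*. The correlation of the pair was 0.91. Of the 1803 named probes, 1522 were chosen for a rise between the same arrays, and all share their scaling, so such values are a description. The genes most like *Slc1a2* were *Trim30a*, *Fgf1*, *Gusb*, *Derl2* and *Anxa5*, each with an r of 0.99. Those most like *Fabp7* were *Rpl13a*, *Styx*, *Kcne1l*, *Trim9* and *Smim20*, with r between 0.992 and 0.997.

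With the mean of each genotype removed, the correlation of *Slc1a2* with *Fabp7* over the 6 arrays was 0.72. Above 0.9 were 86 genes (5.10%) for *Slc1a2* and 87 (5.16%) for *Fabp7*. The highest for *Slc1a2* were *B2m*, *Wnt5b*, *Gbp6*, *Cdca3* and *Trim30a*, between 0.98 and 0.99. For *Fabp7* they were *Styx*, *Rpl13a*, *Smim20*, *Narg2* and *Slc6a19*, each at 0.99. The reference genes *Rpl13a*, a ribosomal protein, and *B2m*, the light chain of MHC class I, were thus among the genes whose deviations between arrays of a genotype most resembled those of *Fabp7* and *Slc1a2*, respectively.

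The authors' own normalized log2 values were 14.1, 14.2 and 14.2 for *Slc1a2* on the KHSRP-KO arrays and 13.6, 13.9 and 13.8 on the WT arrays. For *Fabp7* they were 12.5, 13.1 and 12.7 on the KHSRP-KO arrays and 11.7, 11.9 and 12.3 on the WT arrays. In these values the genotypes were further apart for *Slc1a2*, with a gap of 0.21 between the lowest KHSRP-KO and the highest WT array, and the differences were 0.42 for *Slc1a2* and 0.82 for *Fabp7*. The differences under 21 alternative settings of scaling, filter, test and samples lay between 0.15 and 0.62 for *Slc1a2*. For *Fabp7* they lay between 0.11 and 1.096. Both genes were chosen as higher on this contrast. The filters, other variance estimates and a block for the replicate number cannot change the mean difference. That all values were above 0 is therefore no test.

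With each array left out in turn, the difference of *Slc1a2* was highest without KHSRP-KO array 1, at 0.62, and lowest without WT array 1, at 0.39. That of *Fabp7* was also highest without KHSRP-KO array 1, at 1.096, and lowest without KHSRP-KO array 2, at 0.67. Without KHSRP-KO array 1 or WT array 3, no scan holds both genotypes, so scan and genotype cannot be told apart in those values. With the mean of the reference genes as the scale, *Slc1a2* differed by 0.29 and *Fabp7* by 0.70. On that scale the median of all probes was -0.18.

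**Figure D4:**
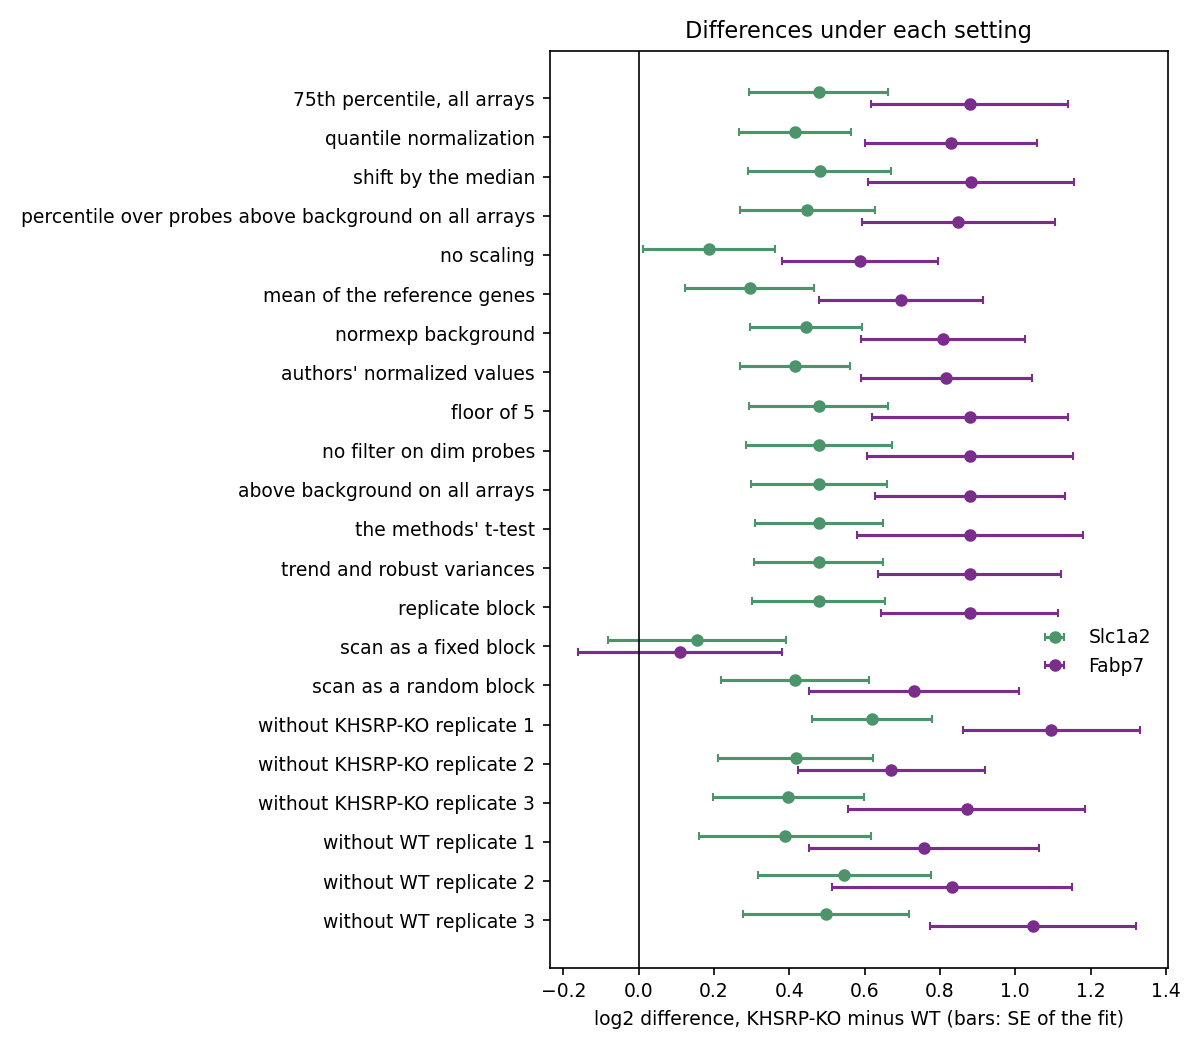
Log2 difference (KHSRP-KO minus WT) of *Slc1a2* (green) and *Fabp7* (purple) under each setting, with bars for the SE of the fit. All points are above 0, and with the scan as a fixed block both genes fall to 0.15 and 0.11, where the bars cross 0.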

How the data were processed

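The authors extracted RNA with Trizol, removed rRNA, labelled it with Cy3 by oligo(dT) and random priming, and scanned Agilent Mouse V4.0 LncRNA arrays. The deposited scanner output was made with Agilent Feature Extraction 11.0.1.1, which gives each spot an intensity in linear units, background-subtracted and not yet scaled between arrays. The median intensity of spot and background as scanned is also deposited. The marks for saturated, outlier and bright spots hold 0 or 1 and are no measurements. The authors' table holds normalized log2 values of the same arrays, by a method not given in the sources used here, with a median of 6.51 on every array.

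Control, negative and outlier spots were left out, the log2 signal was averaged for each of 60915 probes, and each array's 75th percentile was subtracted. Fitting was limited to probes that 3 or more of the 6 arrays showed well above background, and used limma 3.58.1 (lmFit and eBayes) in R 4.3.3, and p-values were adjusted over all 48436 probes. The procedure was tested on simulated data. Symbols came from the study's table of changed mRNAs, whose 266 lower entries were matched by their raw values within a relative tolerance of 2e-05, and from RefSeq accessions for 15 reference genes. That table's fold changes and p-values were not used. Of 170 listed genes, 14 had a named probe. The members and lists were chosen with earlier results of these data known. The text names the members, each listed gene with a named probe (the brightest probe of a gene), the 5 genes most correlated with each member, and reference genes. Replicates are separate samples by the labels, and precision is set by how few arrays there are. Replicate numbers were checked for pairing by the correlation of deviations, which was -0.31, 0.10 and -0.31, so they were not used as pairs. For normexp, median spot intensities were taken because means are not in the files used here.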

Additional observations from a re-analysis of the deposited data

How the results depend on the processing

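The differences of *Slc1a2* (0.48) and *Fabp7* (0.88) and the count of probes past the thresholds were recomputed with other scaling, background correction, filters, tests, blocks and arrays. Without scaling, *Slc1a2* differed by 0.19. With the scan as a fixed block, *Slc1a2* differed by 0.15 and *Fabp7* by 0.11, and *Fabp7* minus *Slc1a2* reversed from 0.40 to -0.044. That block leaves only the pair of the shared scan. Otherwise these values moved by less than the spread between replicates. With each array left out, *Slc1a2* lay between 0.39 and 0.62, *Fabp7* between 0.67 and 1.096, and their difference between 0.25 and 0.55. The highest of these values came without KHSRP-KO array 1 or WT array 3, where no scan holds both genotypes.

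At the unadjusted thresholds, 7889 probes passed, against 2855 with the scan as a fixed block, 4999 at 1.5-fold, and a range of 4015 to 13050 when single arrays were dropped, the most without KHSRP-KO array 1. After adjustment 46 passed. There were 72 with a shift by the median, 23 without scaling and 25 on the mean of the reference genes. With probes above background on all arrays 23 passed, and with trend and robust variances 97. The scan as a random block gave 27, and an unpaired t-test with pooled variance gave 1. With the scan as a fixed block 0 passed with limma. Without a scan block, 6 to 2046 passed when single arrays were dropped, again the most without KHSRP-KO array 1. A block for the replicate number cannot change the differences of 0.48 and 0.88, as each number holds 1 array of each genotype. With that block, 6208 probes passed unadjusted and 1 after adjustment. Where fewer arrays or probes entered, the fit itself differs, and otherwise the cause was not tested. Both spots were far above background, and the values rest on 3 arrays a genotype and on scans of which only 1 held both genotypes.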
